A study of Mus musculus with 6 samples.

Results

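The alternative RNA events of *Mapt*, *App*, *Aplp2* and *Bin1*, genes of the tau and amyloid pathways whose brain transcripts differ in their exons, were read from splicing-sensitive arrays of mouse brain RNA. Every event listed under the symbols *Mapt*, *App*, *Aplp2*, *Bin1*, *Clu* and *Psen2* was taken, which gave 11 events of the 13002 in the deposited table. Of the 6 genes, 4 had events, namely 3 each for *Mapt*, *App* and *Bin1* and 2 for *Aplp2*. *Clu*, which encodes the secreted chaperone clusterin, and *Psen2*, which encodes a catalytic subunit of γ-secretase, had no row under their symbols, nor under an older name on their own chromosome.

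The arrays carried brain RNA of 6 animals from the B6.CAST congenic line, 1 array per animal. Of these, 3 animals were homozygous for the CAST allele of *Nxf1*, the major mRNA export factor, and 3 for the B6 allele. They formed 3 littermate pairs of opposite genotype and the same sex, namely 1 pair of females aged 46 days, 1 of females aged 23 days, and 1 of males aged 22 days (B6 allele) and 23 days (CAST allele). All animals shared the C57BL/6J background, and the animals with the CAST allele also carried CAST sequence around *Nxf1* on chromosome 19, where none of the 11 events lies. RNA was drawn from whole brain, so fewer cells of a type and less RNA per cell cannot be told apart. The comparison asks whether the *Nxf1* allele goes with a different choice between the isoforms of these genes.

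Alternative splicing lets a gene place or omit a segment of its protein, and the genes described here do so in ways that differ between brain and other tissues and between neurons and glia. Tau, the product of *Mapt*, binds microtubules through a row of repeats, one of which sits on a cassette exon, and carries optional inserts near its amino end. App and its relative Aplp2 are membrane proteins cut by secretases. Both can carry a Kunitz domain, which inhibits serine proteases, and both have a cassette exon close to the membrane whose omission allows chondroitin sulphate to be attached. Bin1 bends membranes, and its brain isoforms hold an insert in the membrane-bending domain and a segment that binds clathrin and its adaptor. Exons were given these roles by their length and order in the gene, as background, without reading their sequence.

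Each event of these genes has a path listed as exclusion and an inclusion path. In the exclusion path a segment is skipped, except in the alternative transcript end of *Mapt*, where the paths are different ends. The deposited table lists an intensity for each path in each of its sets, A and B. These 4 intensities are the authors' values, already pooled over the animals of a set. Neither set is given a genotype in the table, and set B was likely the *Nxf1* CAST animals, because the header defines its score as mutant over wild type and that score runs as set B over set A. No value per animal was given, so no spread between animals, no test and no paired analysis could be computed, and the differences below are descriptions of pooled values. The quantity compared, called the log2 ratio of ratios, is log2(exclusion/inclusion) of set B minus that of set A, so that a value above 0 means relatively more exclusion in set B. The paths of an event are measured by different probes, and the ratio within a set is therefore not the share of transcripts that skip the segment. A difference over 0.5 in either direction is called large here. The study required this size of its own score together with a limit on the false discovery rate. That limit was not applied here, so a large difference is not a call of significance. Of the 12948 events with intensities in the table, 7.34% were this large, 4.60% above 0.5 and 2.73% below -0.5. These include complex events without an exclusion path, for which the path of largest absolute value was used. For such events, and for alternative transcript ends, the sign does not mean more or less skipping of a segment.

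Large differences were found in 2 of the 11 events, both in *Bin1* and both with relatively more exclusion in set B. Their windows overlap, so they do not count as separate places in the gene. No event of *Mapt*, *App* or *Aplp2* was this large. Over the 11 events the median absolute difference was 0.28, beside 0.18 over all events in the table, and 8 of the 11 values were above 0, beside 55.5% of all events. Overlapping windows in *Mapt*, *App* and *Bin1* hold several of the values above 0, so these are not 8 separate places. Among cassette exons alone, the median absolute difference was 0.22 for the 8 of these genes and 0.19 for all in the table.

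**Figure D1:**
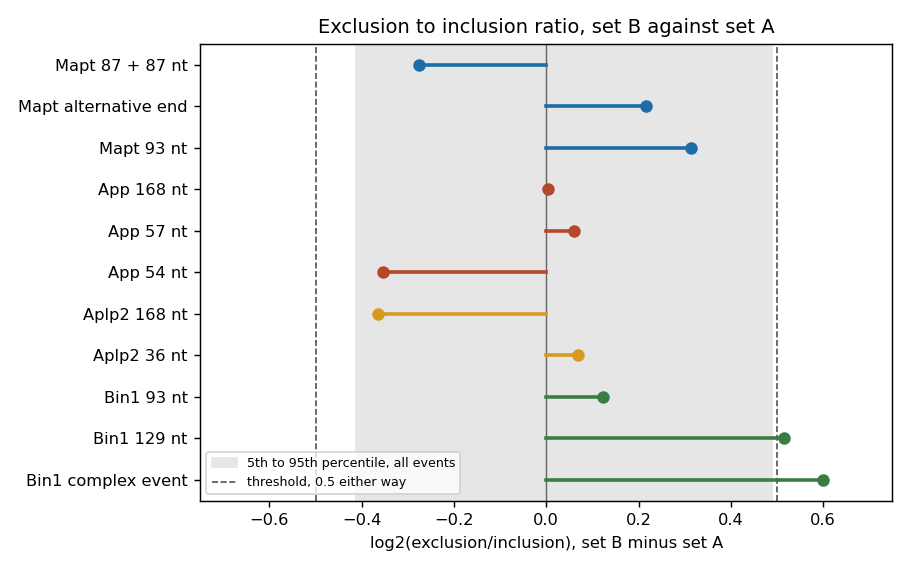
Difference in log2(exclusion/inclusion) between set B and set A for each of the 11 events, labelled by gene and segment length in nucleotides (nt). Each dot is a pooled value with no error available, the grey band runs from the 5th to the 95th percentile of all events (-0.41 to 0.49), and the dashed lines mark 0.5 either way; only the *Bin1* events of 129 nt (0.52) and of the complex type (0.60) lie beyond a line.

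*Bin1* had 3 events on chromosome 18, all on the plus strand and all with values above 0. The first in the gene was a cassette exon of 93 nt (window 32573944 to 32579496), the length of the brain insert in the membrane-bending domain. Its exclusion path measured 959 (set A) and 1025 (set B), its inclusion path 2077 and 2038. Each path was nearly as bright in set B as in set A, and the log2 ratio of ratios was 0.12, a size that 36.5% of all events did not exceed.

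Further along the gene, in the region of the clathrin-binding exons, a cassette exon of 129 nt (window 32584621 to 32591324) had exclusion intensities of 525 in set A and 681 in set B. Its inclusion intensities were 1926 and 1748. The exclusion path was thus brighter and the inclusion path dimmer in set B, by 0.38 and -0.14 on the log2 scale, and their sum was almost the same in the sets (-0.01). The log2 ratio of ratios was 0.52, a 1.43-fold larger ratio in set B, at percentile 93.4 of all events by absolute size and percentile 92.3 of the cassette exons. Among the cassette exons of the table, 8.56% were past 0.5.

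The third *Bin1* event was a complex one, a combination of several choices, in a window (32586006 to 32591324) that lies wholly inside that of the 129 nt exon. Skipping was measured at 293 (set A) and 494 (set B), inclusion at 621 and 691. Here both paths were brighter in set B, the exclusion path by 0.75 and the inclusion path by 0.15 on the log2 scale. The log2 ratio of ratios was 0.60, a 1.52-fold larger ratio in set B and rank 444 of the 12948 events. The sum of the paths was 0.37 higher in set B, at percentile 97.5 of all events, whereas those of the other *Bin1* events differed by 0.01 (93 nt) and -0.01 (129 nt).

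The value of the 129 nt exon stood close to the threshold. With the median of the events with an exclusion path, 0.03, subtracted it was 0.48, and with 50 added to every intensity it was also 0.48, in each case under 0.5. The complex event kept a value over 0.5 in both, and with 200 added neither *Bin1* event did (0.41 and 0.38).

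**Figure D2:**
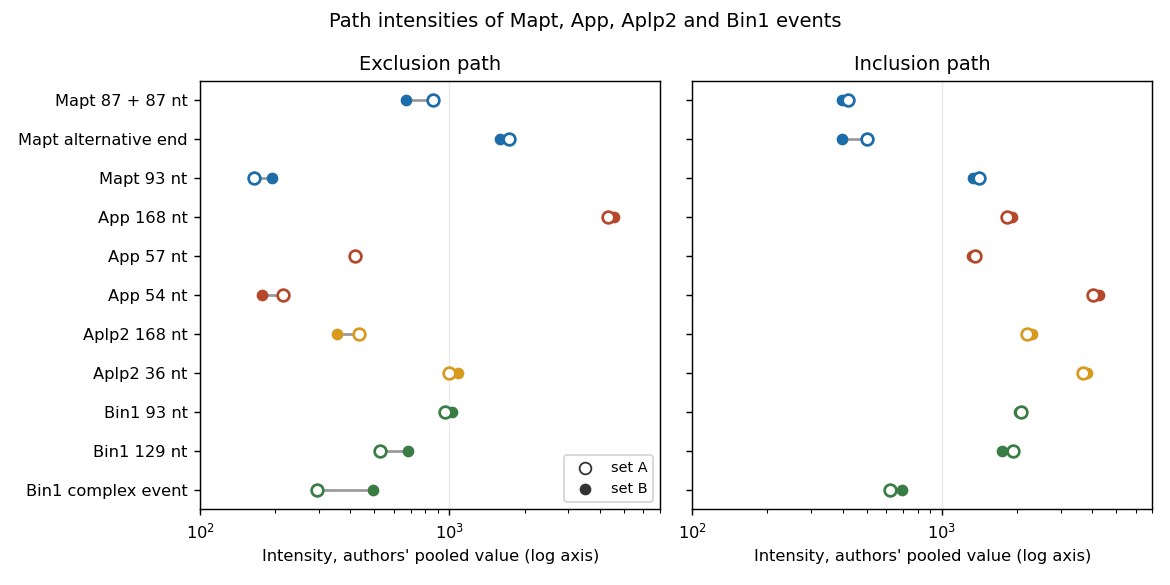
Intensity of the exclusion path (left) and the inclusion path (right) of each event in set A (open circles) and set B (filled circles), on a log axis; each point is the authors' value pooled over a set. The widest gap is in the exclusion path of the *Bin1* complex event (293 and 494), and the circles of *App* 57 nt nearly coincide (416 and 421).

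*App*, on the minus strand of chromosome 16, had cassette exons of 168, 57 and 54 nt. The 168 nt exon (window 85030610 to 85056568), which has the length of the Kunitz domain exon, had exclusion intensities of 4322 in set A and 4558 in set B. Its inclusion intensities were 1821 and 1917. Both paths were brighter in set B to the same degree (0.08 and 0.07 on the log2 scale), and the log2 ratio of ratios was 0.003. Only 0.77% of all events had a difference as small or smaller.

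The neighbouring 57 nt exon (85030610 to 85043820), which has the length of the exon related to the OX-2 antigen, ends at the same downstream boundary, and its window lies inside that of the 168 nt exon. The exclusion path of this exon measured 416 (set A) and 421 (set B), and the inclusion path 1364 and 1324, which gave a log2 ratio of ratios of 0.06. Neurons mostly make App without the Kunitz and OX-2 segments, and the events that cover this choice were thus among the less different of the table, at percentiles 0.77 and 18.0 by absolute size.

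The 54 nt exon of *App* (84966015 to 84978308), which codes for residues near the membrane, gave another picture. Its dim exclusion path measured 214 (set A) and 177 (set B), its bright inclusion path 4032 and 4260. Their log2 ratio of ratios was -0.35, towards more inclusion in set B, at percentile 81.1 of all events. Most of this came from the exclusion path (-0.27 on the log2 scale, or -37 intensity units). Among paths of like brightness, those with a mean of 157.8 to 290.2, the middle 90% ran from -0.33 to 0.41, so the exclusion path of this exon was inside that range.

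*Aplp2*, on the minus strand of chromosome 9, showed the opposite arrangement. Its 168 nt exon (30972258 to 30976292), again with the length of a Kunitz domain exon, had exclusion intensities of 435 in set A and 354 in set B. The inclusion intensities of this exon were 2199 and 2304. The log2 ratio of ratios was -0.36, towards more inclusion in set B, and at percentile 82.4 it was the largest of *App* and *Aplp2* by absolute size. Its 36 nt exon (30961084 to 30965279), near the membrane, had exclusion intensities of 1000 and 1084 and inclusion intensities of 3689 and 3811, and the log2 ratio of ratios was 0.07. Thus the Kunitz domain exon had the larger difference in *Aplp2* (-0.36, against 0.003 in *App*), and the exon near the membrane in *App* (-0.35, against 0.07 in *Aplp2*). None of these differences between the relatives could be tested, since no spread was available for any of the values.

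**Figure D3:**
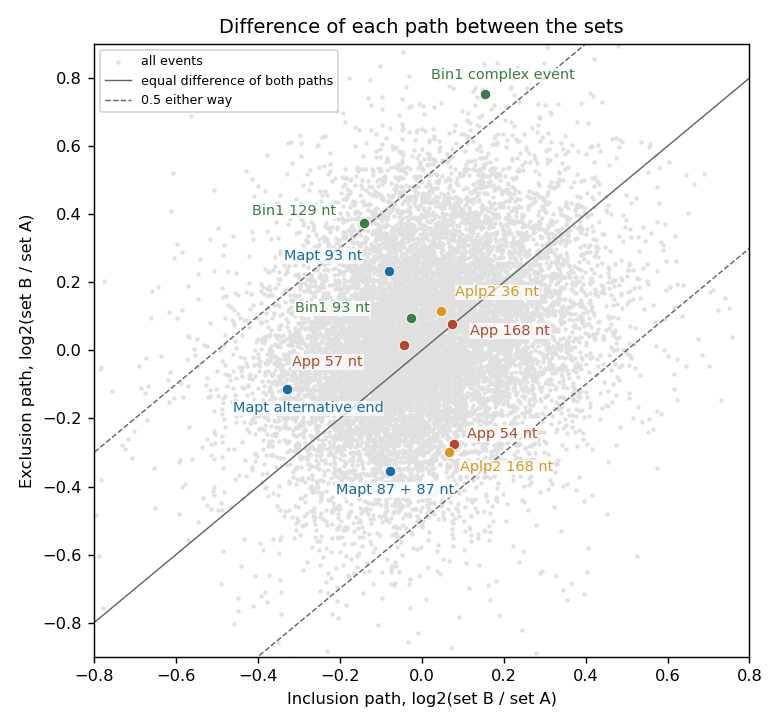
Log2(set B / set A) of the inclusion path (horizontal) against that of the exclusion path (vertical) for all events (grey) and for the named events (coloured by gene); 43 grey points lie outside the axes. Points on the solid line have the same ratio in both sets, and the dashed lines mark a difference of 0.5; *App* 168 nt lies on the solid line, and the *Bin1* 129 nt and complex events lie above the upper dashed line.

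*Mapt*, on the plus strand of chromosome 11, had a twin cassette, a cassette exon and an alternative transcript end, none of them past 0.5. The twin cassette of 87 and 87 nt (window 104143794 to 104156172), which has the lengths of the exons for the inserts near the amino end of tau, had exclusion intensities of 856 in set A and 670 in set B. Its inclusion intensities were 421 and 399. The log2 ratio of ratios was -0.28, at percentile 70.3 of all events. The exclusion path, -0.35 on the log2 scale, lay below the middle 90% of paths of like brightness (-0.29 to 0.31), and the sum of both paths was 0.26 lower in set B, at percentile 5.23 of all events.

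The 93 nt exon (104171848 to 104182664), which has the length of the exon for the optional microtubule-binding repeat, had a dim exclusion path, at 165 (set A) and 194 (set B). The inclusion path measured 1406 and 1330. The log2 ratio of ratios was 0.31, towards more exclusion in set B and at percentile 76.0 of all events. The exclusion path differed by 29 intensity units, and its 0.23 on the log2 scale lay inside the middle 90% of paths of like brightness. With 200 added to every intensity the value was 0.18.

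The alternative end (104156218 to 104189490) spans the window of the 93 nt exon, so the values of these *Mapt* events do not come from separate parts of the gene. For this event the table does not say which end is the exclusion path. The path listed as exclusion measured 1728 (set A) and 1598 (set B), the other path 501 and 399. Both paths were dimmer in set B, by -0.11 and -0.33 on the log2 scale, and the log2 ratio of ratios was 0.22. Summed over the paths, all 3 *Mapt* events were lower in set B, at -0.26 (twin cassette), -0.16 (alternative end) and -0.04 (93 nt). These were at percentiles 5.23, 14.9 and 39.7 of all events. The sums of *App* and *Aplp2* events lay between -0.03 and 0.08, so the *Mapt* 93 nt sum was close to the lowest of them.

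**Figure D4:**
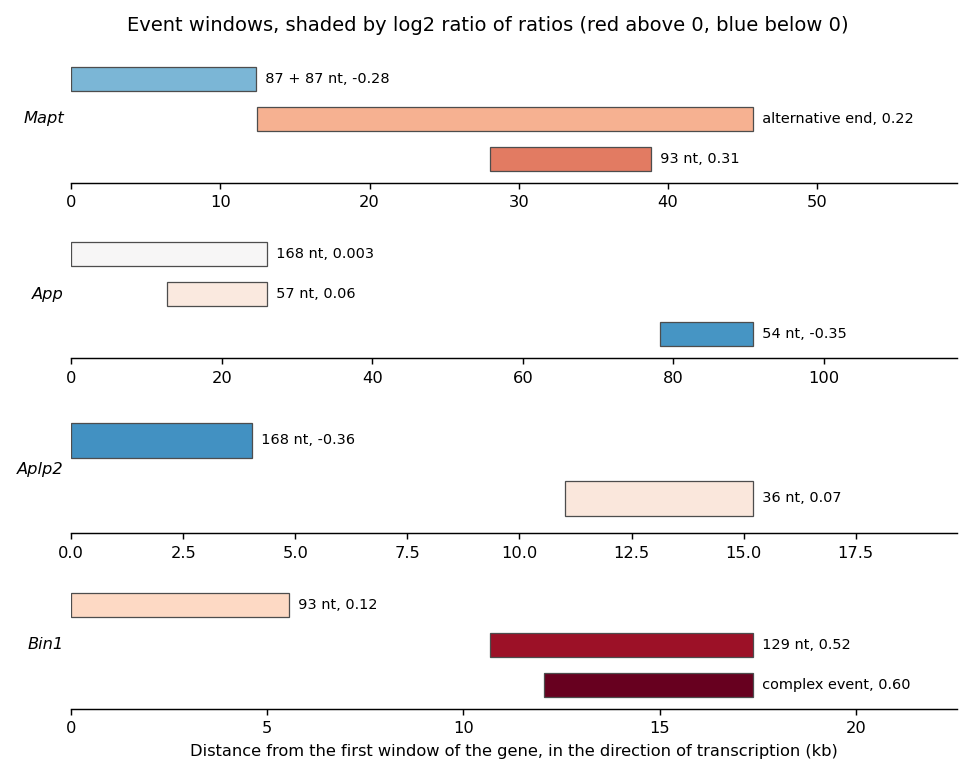
Windows of the events along each gene, in kb from its first window in the direction of transcription, shaded by log2 ratio of ratios (set B minus set A; red above 0, blue below 0) with the value beside each bar. The *Bin1* 129 nt and complex windows overlap (0.52 and 0.60), as do *App* 168 and 57 nt (0.003 and 0.06) and *Mapt* alternative end and 93 nt (0.22 and 0.31).

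The cassette segments of these genes shared a property. All 10 segment lengths in the event names, from 36 to 168 nt and including both of the *Mapt* twin cassette, were multiples of 3. Such a length keeps the reading frame where the exon is coding. The genes were chosen for known brain isoforms, so the lengths may not be independent of that choice. Of the 3738 cassette exons in the table with 1 length in the name, 53.2% had such a length. Large differences were found in 7.59% of these and in 9.55% of the other cassette exons. That the names give the segment length was tested on retained introns, where the window matched it (length plus 2) in 93.8% of 1061 events.

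The paths of these genes were otherwise placed within the range of the table. Of the 22 paths, 12 were brighter and 10 dimmer in set B, and 20 lay between the 5th and the 95th percentile of the paths of like brightness, taken in 4 equal groups. The exceptions were the exclusion paths of the *Bin1* complex event and of the *Mapt* twin cassette. The exclusion path of the *Bin1* 129 nt exon, at 0.375, lay just under the upper limit of its group (0.384). Its mean of 597.9 was close to the top of that group (603.6), and the upper limit of the brightest group was 0.307. The brightest group is wide, from 603.7 to 13080. Dim paths in the table tended to be brighter in set B, with a median of 0.06 on the log2 scale in the dimmest group and -0.03 in the brightest. The part of this shift in the differences was not tested.

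Markers of brain cell types were looked up in the same table. Of 7 neuron genes 4 had events, with intensities from 664 to 12087, and 4 of 6 oligodendrocyte genes had events, with intensities from 279 to 11314. Astrocyte events ran from 70 to 10330, microglia events from 100 to 459 and endothelial events from 102 to 712. The 4 genes of other organs with events (of 5 listed) ran from 87 to 356, a range that all but the neuron genes overlapped. Between the sets, the summed path intensity of the events had a median log2 difference of -0.01 for neuron genes (-0.10 to 0.17), -0.05 for oligodendrocyte genes (-0.13 to 0.11), 0.09 for astrocyte genes (-0.18 to 0.14), 0.04 for microglia genes (-0.10 to 0.12) and -0.11 for endothelial genes (-0.21 to 0.29). Among the microglia events an alternative 3′ splice site of *Csf1r*, the receptor that microglia need to survive, had a log2 ratio of ratios of -1.13, rank 13 of all events and larger in size than any value of *Bin1*. Its exclusion path measured 415 (set A) and 273 (set B), its inclusion path 318 and 458. No other marker event was past 0.5. The genes of other organs, at low intensities, were 0.13 to 0.32 higher in set B. The part of cell makeup in the *Bin1* and *Mapt* values was not tested.

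A list of 76 other genes of the amyloid, tau and neurodegeneration pathways held 40 genes with events, 66 events in all. Of these events 3 were above 0.5 and 2 below -0.5, together 7.58%, beside 7.34% of all events. The median absolute difference over the list was 0.12, below that of all events (0.18).

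The largest positive value of the list was in *Aph1a*, which encodes a γ-secretase subunit. Its 35 nt cassette exon had exclusion intensities of 1326 (set A) and 1854 (set B) beside inclusion intensities of 1270 and 1111, which gave 0.68. A 125 nt cassette exon of *Atxn1*, the gene of the ataxia protein ataxin, gave 0.52, close to the threshold, with exclusion at 292 and 358 and inclusion at 1609 and 1372. Both joined a brighter exclusion path to a dimmer inclusion path, as for the *Bin1* 129 nt exon.

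On the negative side, a complex event of *Gsk3a*, a kinase that phosphorylates tau, gave -0.504, just past the threshold. Its exclusion intensities were 1750 and 1237 beside inclusion intensities of 2537 and 2543. The other *Gsk3a* event, a 51 nt alternative 3′ splice site inside the same window, gave -0.04. A complex event of *Sorcs1*, a sorting receptor for App whose gene lies on chromosome 19, as *Nxf1* does, gave -0.66, from exclusion intensities of 201 and 127 beside inclusion intensities of 198 and 197. In the complex events of *Gsk3a* and *Sorcs1*, the exclusion path was dimmer in set B and the inclusion path nearly equal. The list's *Mark2* events, also on chromosome 19 (7351920 to 7416334), ran from -0.07 to 0.38. The paper places the *Nxf1* congenic region on chromosome 19A. Whether the *Sorcs1* event, which starts at 50225463, or the *Mark2* events lie in this CAST interval was not examined. For array differences inside it, the paper regards probe mismatch or allelic differences independent of *Nxf1* as likely, which was not tested here.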

How the data were processed

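Brain RNA of 6 animals was hybridized by the authors to Affymetrix MJAY arrays, and Affymetrix Power Tools is named in the submitters' processing notes. The deposited table holds exclusion and inclusion intensities for each path, pooled by the authors over the arrays of a set as whole numbers on a linear scale. Background correction, normalization, software version and genome build are not given in the sources used here. The windows of *Mapt*, *Aplp2* and *Bin1* lie outside those genes in GRCm38, so positions are given as in the table. The table's own separation scores and q-values, for a paired and a standard comparison, were not used.

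From the intensities, log2(exclusion/inclusion) was computed per set, and set A was subtracted from set B, with no constant added and no filter. An event took its exclusion path, or its path of largest absolute value where it had none, and 0.5 was the threshold. The step was run on simulated intensities without noise, which checks its arithmetic only. All events of the listed genes are named, and of the pathway list those past 0.5, except an event that is counted but not reported here. Genes and lists were chosen with earlier results of these data known. No counts underlie array intensities, and the number of arrays limits the precision. Alternatives were other thresholds, added constants, centring, path means, a filter on dim paths, the intensities of the standard comparison and overlapping windows counted once. Python 3.11.15, numpy 2.4.6 and pandas 2.3.3 were used.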

Additional observations from a re-analysis of the deposited data

How the results depend on the processing

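The count of large differences rested on the threshold and on small shifts. Of the 11 events, 2 were past 0.5. With a threshold of log2 of 1.5 (0.585) 1 event was, beside 3.78% of all events, and with a threshold of 1 none (0) was, beside 0.224% of all events. The count was 1 with 50 added to each intensity and 0 with 200 added, 1 with the median of the events with an exclusion path subtracted (7.12% of all events), and 1 with overlapping windows counted once, an alternative chosen after seeing the data. In the pathway list the 5 events past the threshold became 2 at log2 of 1.5, 0 at 1, 1 with 50 added and 1 with 200 added. The list count was 4 with path means. With the median subtracted it was 5, not all of them the same events. Over all events the share past the threshold was 3.18% with 50 added and 0.587% with 200 added, so the constant lowered it everywhere. Path means, the filter on dim paths and the intensities of the standard comparison, which differed from the paired ones in 0 of 26304 paths, left 2 events, but these 3 alternatives returned the reported value for each of the 11 events and so say nothing of their stability. The added constants and the centring moved 33 values, of which 32 had the sign of the reported value, and the exception was the *App* 168 nt exon, at -0.03 with the median subtracted. No paired analysis was possible because the deposited intensities are pooled over the littermate pairs, and leaving out an animal was not possible for the same reason.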
